A study of Homo sapiens with 24 samples.

Results

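The 9 genes described here encode scavenger receptors or close relatives of them, namely OLR1, CD36, MSR1, MARCO, SCARB1, SCARB2, CD163, STAB1 and MRC1. They were taken by gene symbol from the table of all genes. Each of the 9 symbols was found, and all 9 were among the 13900 tested genes of the 38735 named genes, although MARCO reached the minimum mean of 10 normalized counts only through the LPS libraries. Scavenger receptors are surface or lysosomal proteins that bind modified lipoproteins, bacterial surfaces, dying cells and spent plasma proteins and pass them to the endosome. In macrophages, CD36 and MSR1 are best known for taking up oxidized or acetylated lipoprotein during foam cell formation, and CD163 and MRC1 are widely used markers of macrophages that clear debris.

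The study measured poly-A RNA in THP-1 cells. This established human line comes from a monocytic leukaemia, and all cells had been differentiated into macrophage-like cells with 100 nM PMA, a phorbol ester, for 24 h. DCVC_LPS cells were exposed to 5 µM DCVC for 24 h and then, in fresh medium, to 100 ng/mL LPS for 4 h. LPS cells were given LPS at that dose and time with no DCVC, DCVC cells were given DCVC with no LPS, and Control cells were given medium. DCVC is S-(1,2-dichlorovinyl)-L-cysteine, a metabolite of the solvent trichloroethylene, and LPS is a component of the outer membrane of gram-negative bacteria. Each of the 4 groups holds 6 libraries with the letters A to F. The question named by the title of the series is whether DCVC inhibits inflammatory transcription induced by LPS. THP-1 is a single tumour line, so the 24 libraries represent no donors, and the labels do not state that libraries of 1 group are separate cultures. The p-values therefore describe the spread among these libraries, part or all of which may be technical. Within a group, deviations from the mean of the group went together in letters A and B, in C and D and in E and F (Pearson's r over the tested genes 0.125 to 0.587 in 12 pairs of libraries) and ran against each other in all 48 other pairs (-0.661 to -0.126), where deviations that sum to 0 within a group lean to negative values by construction. The 6 libraries of a group may thus not be 6 independent samples, in which case the p-values are too small.

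The reads assigned to named genes numbered 20352552 to 26232127 per library in DCVC_LPS, 19985317 to 30107819 in LPS, 18478618 to 22015664 in DCVC and 19675823 to 27986524 in Control. Levels are deposited normalized counts, which are reads divided by a factor per library, and changes are log2 changes of value + 1 with a standard error and limma's p adjusted over all tested genes. A gene with an adjusted p under 0.05 is called raised or lowered. The treatments left their usual marks, with TNF (an inflammatory cytokine) raised by LPS by 8.38 ± 0.35 (limma adjusted p = 8.03e-17) and GCLM, which encodes a subunit of the glutathione-making ligase, raised by DCVC by 3.18 ± 0.10 (limma adjusted p = 1.83e-17). The macrophage label was checked on 12 markers, all of which were tested, and their summed level ran from 47302 to 51710 in DCVC_LPS, 49056 to 52575 in LPS, 60388 to 68200 in DCVC and 87976 to 101026 in Control. CD68 and CD14 were among them, and CD68 averaged only 25.5, 11.1, 15.6 and 5.28 normalized counts in DCVC_LPS, LPS, DCVC and Control. Of 6 T and B cell markers only CD4, which monocytes also express, was tested, and CD3E had no read in LPS and Control. Of 7 epithelial, endothelial and fibroblast markers VWF and COL1A1 were tested, and EPCAM had no read in DCVC_LPS, LPS and Control. The summed level of these 7 was 368.9 to 523.6 in DCVC_LPS, 153.7 to 187.3 in LPS, 459.1 to 654.7 in DCVC and 195.5 to 293.5 in Control. VWF, an endothelial and platelet protein, averaged 397.2, 116.5, 531.3 and 195.7 in the same order and was raised by DCVC (1.44 ± 0.12, limma adjusted p = 2.25e-10), and the part of these markers in the receptor changes was not tested.

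DCVC lowered 8 of the 9 receptors and raised none, and MARCO was not called. LPS without DCVC lowered 5, raised OLR1 and MARCO and left STAB1 and MRC1 uncalled. Over all tested genes DCVC lowered 32.2% and raised 27.5%, and LPS lowered 40.6% and raised 37.8%, so calls in either direction were common in these libraries. Among LPS-treated cells, DCVC_LPS was lower than LPS in 7 receptors and higher in none, where 39.4% of all genes were lowered and 33.3% raised. Among DCVC-treated cells, DCVC_LPS was lower than DCVC in 4 receptors and higher in OLR1, against 32.2% of all genes lowered and 29.9% raised. With the letter as replicate block, LPS lowered 6 receptors, DCVC 8, DCVC_LPS was lower than LPS in 8 and lower than DCVC in 6, and the counts of raised receptors were the same. With the partner letters averaged to 3 values a group, an alternative chosen after seeing the data, LPS lowered 3 and DCVC 5, and DCVC_LPS was lower than LPS in 5 and lower than DCVC in 3. With the pair of letters as replicate block as well, these counts were 6, 8, 7 and 5. The median log2 change of the 9 receptors was -0.68 for LPS minus Control, -0.83 for DCVC minus Control, -0.78 for DCVC_LPS minus LPS and -0.42 for DCVC_LPS minus DCVC, beside medians over all tested genes of -0.03, -0.03, -0.07 and -0.03. The first 2 of these comparisons share the Control libraries, and each DCVC_LPS comparison shares libraries with another, so the 4 medians are not independent. MARCO enters these counts although its low level let it be tested only because it was high with LPS. The plot of changes by comparison shows the same counts gene by gene.

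**Figure D1:**
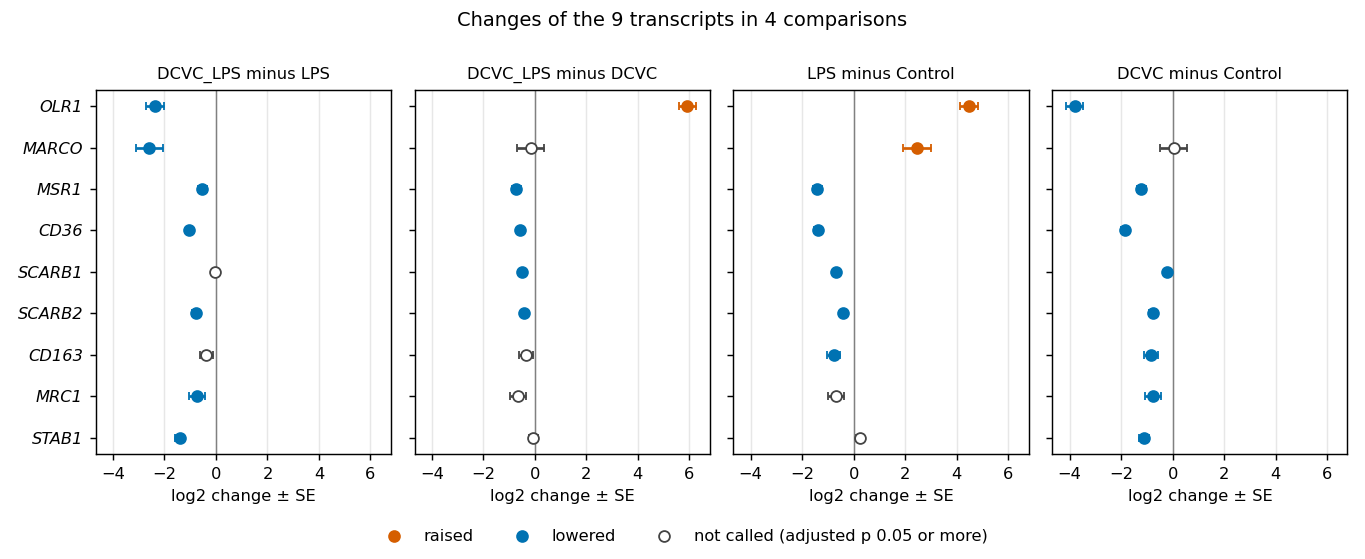
The plot gives the log2 change ± SE of each of the 9 transcripts in 4 comparisons, with filled points for calls at adjusted p under 0.05. OLR1 moved furthest in 3 of the 4 panels, down to -3.81 with DCVC alone and up to 5.93 with LPS after DCVC. SCARB1, SCARB2, CD163 and MRC1 stayed within 1 log2 unit of 0 in all 4.

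The scaling of the libraries bears on these counts. The normalized totals averaged 21831254 ± 235112 in DCVC_LPS, 29427331 ± 839114 in LPS, 17774466 ± 305501 in DCVC and 21135356 ± 563705 in Control (SD, n = 6 each). Scaling every library to the same total moved the median of all genes by -0.47 for LPS minus Control, 0.25 for DCVC minus Control, 0.43 for DCVC_LPS minus LPS and -0.29 for DCVC_LPS minus DCVC. It moved the share of raised genes among all calls from 48.2% to 27.4% for LPS minus Control, 46.0% to 69.7% for DCVC minus Control, 45.8% to 71.3% for DCVC_LPS minus LPS and 48.2% to 23.6% for DCVC_LPS minus DCVC. With equal totals, LPS lowered 6 receptors and raised 2, DCVC lowered 5 and raised none, DCVC_LPS was lower than LPS in 5 and higher in SCARB1, and DCVC_LPS was lower than DCVC in 6 and higher in OLR1. Of all 13900 tested genes LPS then lowered 8275 and raised 3118, and DCVC lowered 2790 and raised 6412. DCVC_LPS was lower than LPS in 3051 and higher in 7578, and lower than DCVC in 7322 and higher in 2263. The medians of the 9 receptors were then -1.14, -0.58, -0.35 and -0.72. On either scale the median of the receptors lay below the median of all genes in each of the 4 comparisons. The files do not show which scale is nearer to RNA per cell, and in bulk RNA fewer cells of a kind and less RNA per cell cannot be told apart.

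Upstream sequences are shown for 4 of the receptors, to give the letters next to the start of genes whose transcripts were lowered by DCVC (CD36, CD163 and STAB1) or were high only with LPS (MARCO). SCARB2 was lowered by DCVC as well, and its sequence is not shown. RefSeq promoter sequence on GRCh38.p14 was used for 5 of the 9 genes, the fifth being SCARB2. Each line gives the 250 bases before a transcript start, 5′ to 3′ on the strand of the gene, with capitals marking matches to the motifs searched.
CD163 (chr12:7503778-7504027, minus strand): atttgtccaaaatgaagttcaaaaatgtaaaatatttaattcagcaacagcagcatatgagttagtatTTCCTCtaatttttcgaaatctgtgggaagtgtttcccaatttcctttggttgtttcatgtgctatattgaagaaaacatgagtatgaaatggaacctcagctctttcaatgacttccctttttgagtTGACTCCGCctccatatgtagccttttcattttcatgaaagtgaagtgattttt
STAB1 (chr3:52495088-52495337, plus strand): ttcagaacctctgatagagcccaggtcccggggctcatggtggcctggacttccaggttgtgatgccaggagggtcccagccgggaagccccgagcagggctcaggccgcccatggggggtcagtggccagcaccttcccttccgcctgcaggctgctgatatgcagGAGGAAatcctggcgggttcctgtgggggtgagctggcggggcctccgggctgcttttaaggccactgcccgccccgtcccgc
MARCO (chr2:118941944-118942193, plus strand): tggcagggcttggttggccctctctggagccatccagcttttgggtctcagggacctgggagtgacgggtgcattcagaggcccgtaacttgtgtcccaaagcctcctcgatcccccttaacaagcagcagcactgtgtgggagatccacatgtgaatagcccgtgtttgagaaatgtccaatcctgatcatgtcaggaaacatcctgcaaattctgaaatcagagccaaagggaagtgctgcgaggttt
CD36 (chr7:80623842-80624091, plus strand): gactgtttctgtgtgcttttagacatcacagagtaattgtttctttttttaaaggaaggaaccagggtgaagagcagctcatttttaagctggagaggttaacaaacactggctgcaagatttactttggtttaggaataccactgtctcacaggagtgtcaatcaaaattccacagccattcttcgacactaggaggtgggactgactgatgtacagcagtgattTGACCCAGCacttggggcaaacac

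The motifs searched on both strands were the antioxidant response element core TGACNNNGC, to which NRF2 binds, the AP-1 letters TGANTCA, the PU.1 letters GAGGAA and the E-box CACGTG. The response element core and the AP-1 letters can overlap. Over 34943 promoters of the same length these were held by 10.9%, 6.59%, 23.6% and 6.32%. The CD163 window held the core as TGACTCCGC, 54 to 46 bases before the start, and the PU.1 letters on the other strand 182 to 177 bases before it. The CD36 window shown held the core as TGACCCAGC 24 to 16 bases before its start, which is 1 of 6 CD36 starts in the table. No other CD36 window held the core. The share of 10.9% is for a single window, and a gene with 6 windows has more room for a match. Among the 5 other CD36 starts, 3 had the PU.1 letters and 1 the AP-1 letters. The STAB1 window held the PU.1 letters 83 to 78 bases before the start, and the MARCO and SCARB2 windows held none of these letters. MSR1 was left out of the search, and no promoter sequence was found for OLR1, SCARB1 and MRC1. A match is a run of letters and was not tested as a binding site.

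OLR1, the lectin-like receptor for oxidized LDL (chromosome 12, 10158301 to 10172138, minus strand), had the widest range of the 9. Its lowest, median and highest levels were 2845, 3500.1 and 6575 normalized counts in DCVC_LPS and 14519.9, 20438 and 28561 in LPS. They were 38.1, 47.7 and 168.6 in DCVC and 592.2, 714.5 and 1977 in Control. No 2 of the 4 groups overlapped, with LPS on top, DCVC_LPS next, Control below it and DCVC lowest. OLR1 thus rose 20.3-fold in mean level with LPS, to 20977 ± 4982 in LPS cells against 1036 ± 596 in Control cells (SD, n = 6 each; log2 change 4.48 ± 0.34, limma adjusted p = 9e-12). In cells given DCVC alone OLR1 fell to 76.3 ± 53.3, a mean 13.6-fold lower than in Control (log2 change -3.81 ± 0.34, limma adjusted p = 1.15e-09). With LPS, OLR1 was 5.06-fold lower in DCVC_LPS than in LPS (log2 change -2.37 ± 0.34, limma adjusted p = 1.03e-06), yet 54.3-fold higher than in DCVC (5.93 ± 0.34, limma adjusted p = 1.44e-13). Each of these 4 calls was kept in all 46 alternative settings tried. TMEM52B, on the opposite strand, overlaps the 5′ end of OLR1, averaged 172.7, 324.9, 15.6 and 127.9 normalized counts in DCVC_LPS, LPS, DCVC and Control, and its share in the OLR1 reads was not tested since the strand setting is not given in the sources used here.

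**Figure D2:**
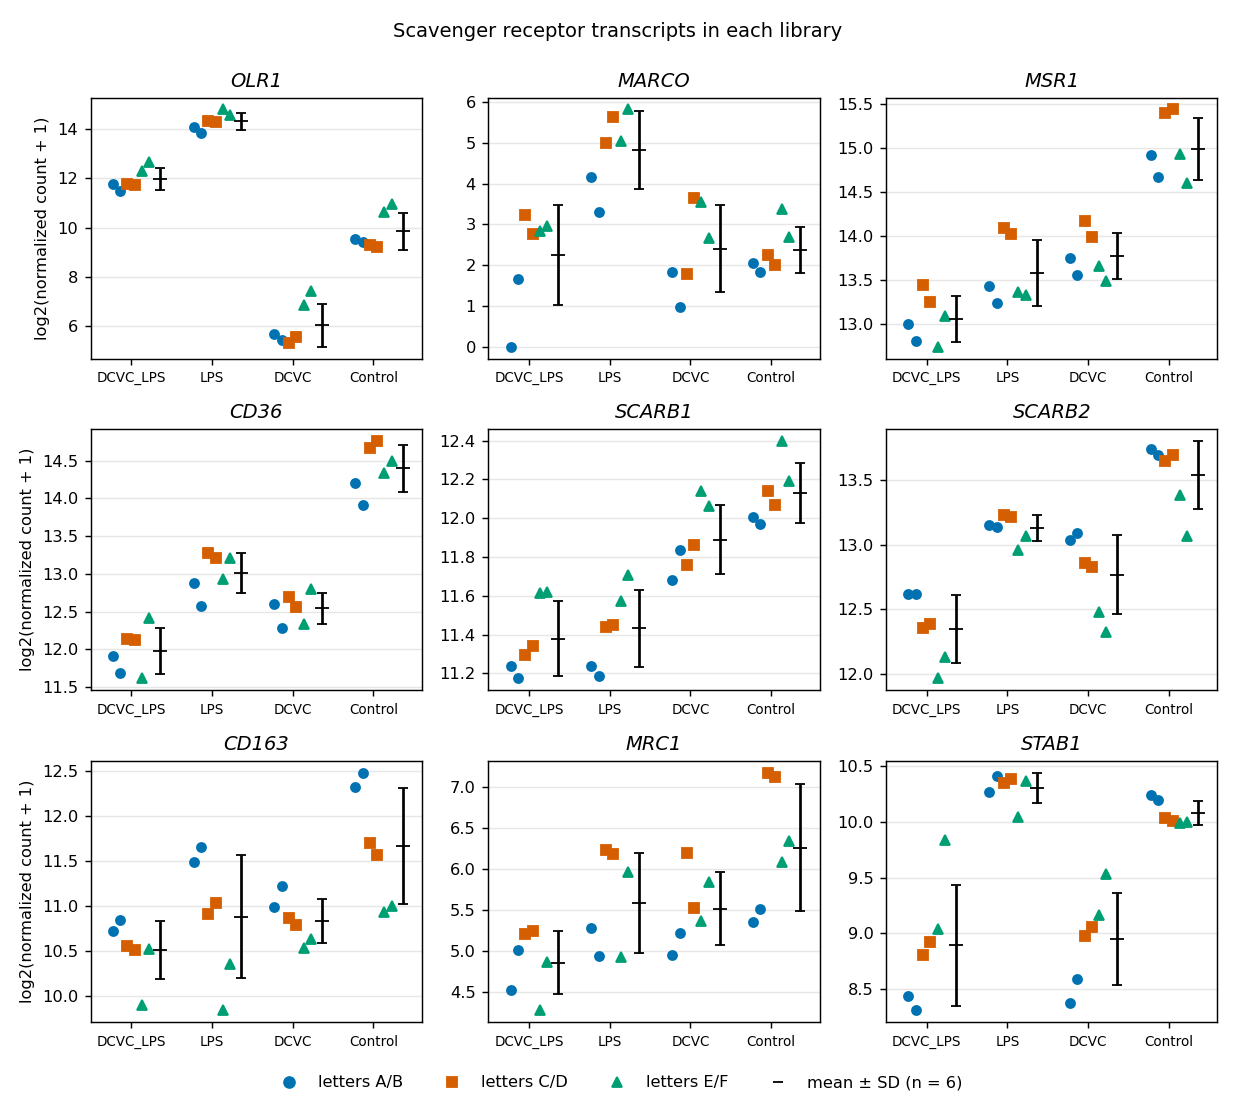
Each point is a library, on a log2(normalized count + 1) axis whose range differs between panels, with 3 colours that group the letters (A with B, C with D, E with F) and bars for mean ± SD (n = 6). The OLR1 panel shows 4 groups with no overlap, and the CD163 panel shows libraries A and B on top and E and F mostly at the bottom within groups.

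CD36, a class B receptor for oxidized LDL and long-chain fatty acids (chromosome 7, 80369575 to 80679277, plus strand), was highest in untreated cells and fell with each treatment. The lowest, median and highest CD36 levels were 3136, 4168 and 5439 normalized counts in DCVC_LPS and 6092, 8643 and 9893 in LPS. They were 4966, 6111 and 7139 in DCVC and 15385, 21927 and 27709 in Control. All LPS and all DCVC libraries lay below all Control libraries, and all DCVC_LPS libraries lay below all LPS libraries. CD36 fell 2.62-fold in mean level with LPS (log2 change -1.38 ± 0.15, limma adjusted p = 5.59e-09) and 3.65-fold with DCVC (-1.85 ± 0.15, limma adjusted p = 1.89e-10). It was lower in DCVC_LPS than in LPS (log2 change -1.03 ± 0.15, limma adjusted p = 1.02e-06) and lower than in DCVC (log2 change -0.56 ± 0.15, limma adjusted p = 0.00192), and the last of these was not called within letters E and F alone (-0.56, limma adjusted p = 0.0901).

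MSR1, the class A receptor for acetylated LDL (chromosome 8, 16107878 to 16567490, minus strand), fell with each treatment and varied with the letter of the library. Lowest, median and highest levels of MSR1 were 6833, 8431 and 11118 in DCVC_LPS and 9618, 10797 and 17393 in LPS. They were 11485, 13349 and 18393 in DCVC and 24830.3, 31095 and 44427 in Control. The DCVC_LPS and LPS groups overlapped, with 4 of 6 DCVC_LPS libraries below all LPS libraries, whereas both the LPS and the DCVC group lay wholly below Control. MSR1 fell 2.66-fold in mean level with LPS (log2 change -1.41 ± 0.17, limma adjusted p = 4.57e-08) and 2.36-fold with DCVC (-1.22 ± 0.17, limma adjusted p = 1.44e-06). DCVC_LPS was lower than DCVC (log2 change -0.71 ± 0.17, limma adjusted p = 0.000805). DCVC_LPS was lower than LPS (log2 change -0.52 ± 0.17, limma adjusted p = 0.00813), a difference that equal totals reduced to -0.09 (limma adjusted p = 0.608) and that was not called with partner letters averaged (limma adjusted p = 0.0704). With the pair of letters as replicate block as well, the difference was called (limma adjusted p = 4.45e-05).

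MARCO, the other class A receptor, which binds bacteria in the lung and spleen (chromosome 2, 118942166 to 118994660, plus strand), had few reads. Reads summed over 6 libraries were 33 in DCVC_LPS, 151 in LPS, 37 in DCVC and 29 in Control, so counting error is large. The lowest, median and highest levels were 0, 5.98 and 8.36 normalized counts in DCVC_LPS, 8.87, 31.5 and 55.5 in LPS, 0.977, 3.95 and 11.5 in DCVC, and 2.56, 3.47 and 9.37 in Control. In the LPS group 5 of 6 libraries lay above all Control libraries, and the DCVC_LPS group lay wholly below LPS. MARCO rose with LPS by 2.46 ± 0.54 (limma adjusted p = 0.000204) and was lower in DCVC_LPS than in LPS (log2 change -2.59 ± 0.54, limma adjusted p = 0.000137). Both differences were favoured in advance, since MARCO reached the minimum mean only through the LPS libraries. The changes were 0.04 ± 0.54 for DCVC minus Control (limma adjusted p = 0.957) and -0.17 ± 0.54 for DCVC_LPS minus DCVC (limma adjusted p = 0.804), and neither was called. The pseudocount of 1 can make the changes of so low a gene smaller than the ratio of its levels.

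SCARB1, the HDL receptor that takes up cholesteryl ester (chromosome 12, 124776856 to 124882668, minus strand), was the most even of the 9. SCARB1 levels had a minimum, median and maximum of 2309, 2549.6 and 3147 normalized counts in DCVC_LPS and 2330.3, 2785 and 3342 in LPS, which overlap almost fully. They were 3279, 3689 and 4506 in DCVC and 4018, 4406 and 5394 in Control. SCARB1 fell with LPS (log2 change -0.70 ± 0.10, limma adjusted p = 7.27e-07) and was lower in DCVC_LPS than in DCVC (log2 change -0.51 ± 0.10, limma adjusted p = 9.37e-05), with all 6 libraries below all of the other group in both. The fall with DCVC of -0.24 ± 0.10 (limma adjusted p = 0.0415) was seen in 6 of 6 letters and was near the threshold: it was not called without several libraries or letters (DCVC A to D, Control C, E and F, letters A, C and D), nor with partner letters averaged (limma adjusted p = 0.192), nor by edgeR with TMM scaling (adjusted p = 0.104), and with equal totals it was 0.01 (limma adjusted p = 0.941). With partner letters averaged and the pair of letters as replicate block, the fall with DCVC was called (limma adjusted p = 0.003). The difference between DCVC_LPS and LPS was -0.05 ± 0.10 (limma adjusted p = 0.645), and with equal totals it turned round to 0.38 and was called (limma adjusted p = 0.00241).

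SCARB2, which encodes LIMP-2, an abundant protein of the lysosomal membrane (chromosome 4, 76158733 to 76234536, minus strand), fell with both agents. In the order lowest, median and highest, SCARB2 stood at 3993, 5301 and 6279.8 normalized counts in DCVC_LPS and 7946, 9047 and 9581 in LPS. The values were 5109, 7328 and 8700.0 in DCVC and 8559, 13012 and 13695 in Control. The LPS group lay mostly within the range of Control, with 1 of 6 libraries below all of it, while DCVC_LPS lay wholly below LPS. The log2 change was -0.41 ± 0.13 with LPS (limma adjusted p = 0.00703) and -0.77 ± 0.13 with DCVC (limma adjusted p = 2.49e-05). DCVC_LPS was lower than LPS (log2 change -0.78 ± 0.13, limma adjusted p = 1.19e-05) and lower than DCVC (log2 change -0.42 ± 0.13, limma adjusted p = 0.00806). Within letters E and F alone the LPS change was -0.21 and not called (limma adjusted p = 0.148). With partner letters averaged neither the LPS change (limma adjusted p = 0.0704) nor the difference between DCVC_LPS and DCVC (limma adjusted p = 0.0852) was called. Both were called with the pair of letters as replicate block as well. FAM47E overlaps SCARB2 on the other strand and averaged 5.15, 3.75, 13.6 and 11.1 normalized counts in DCVC_LPS, LPS, DCVC and Control.

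Of the lysosomal genes listed beside SCARB2, 8 were tested. DCVC raised 5 and lowered 1, where 27.5% of all genes were raised and 32.2% lowered, and DCVC_LPS was higher than LPS in 5 and lower in 1, where 33.3% were raised and 39.4% lowered. With DCVC, PSAP, the saposin precursor, rose by 0.48 ± 0.07 (limma adjusted p = 1.26e-06), and CTSD, the protease cathepsin D, rose by 0.43 ± 0.07 (limma adjusted p = 7.43e-06). CTSD averaged 18034, 9858, 21807 and 16116 normalized counts in DCVC_LPS, LPS, DCVC and Control. LIPA, lysosomal acid lipase, fell with DCVC (log2 change -0.24 ± 0.06, limma adjusted p = 0.000881). LPS raised 2 of the 8 and lowered 3 (37.8% and 40.6% of all genes), or 3 and 3 with the letter as replicate block, with CTSD at -0.71 ± 0.07 (limma adjusted p = 8.04e-10). With equal totals DCVC raised 7 of the 8 and lowered none, where it raised 6412 of all 13900 genes, and LPS raised none and lowered 5, where it lowered 8275.

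CD163, the receptor for haemoglobin bound to haptoglobin (chromosome 12, 7470813 to 7503893, minus strand), fell with each agent given alone. CD163 levels (lowest, median, highest) were 959.9, 1492 and 1846 normalized counts in DCVC_LPS and 919.7, 2013 and 3223 in LPS. They were 1487, 1818 and 2388 in DCVC and 1962, 3180.4 and 5718 in Control. The ranges overlapped in all 4 comparisons, and libraries A and B were the 2 highest in each group. The log2 change was -0.79 ± 0.27 with LPS (limma adjusted p = 0.0107) and -0.83 ± 0.27 with DCVC (limma adjusted p = 0.0107), with all 6 letters lower in both. The DCVC change with equal totals was -0.58 and not called (limma adjusted p = 0.0564), although it was called with equal totals and the letter as replicate block together (limma adjusted p = 0.000349). It was not called within letters E and F alone (-0.38, limma adjusted p = 0.175). With partner letters averaged neither the LPS change (limma adjusted p = 0.0814) nor the DCVC change (limma adjusted p = 0.094) was called. Both were called with the pair of letters as replicate block as well.

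The difference of CD163 between DCVC_LPS and LPS was not alike in all letters. It was -0.37 ± 0.27 (limma adjusted p = 0.222), lower in 4 of 6 letters. With the letter as replicate block it was called (limma adjusted p = 0.0137), and with equal totals it was 0.0615 (limma adjusted p = 0.84). Within letters A and B it was -0.79 (limma adjusted p = 8.68e-07), within C and D -0.44 (limma adjusted p = 1.46e-05) and within E and F 0.12 (limma adjusted p = 0.647), and it was called without LPS library E (-0.58, limma adjusted p = 0.0449). The 2 libraries a group behind each of these within-pair fits resemble each other, so their p-values may be too small. DCVC_LPS minus DCVC was -0.33 ± 0.27 (limma adjusted p = 0.302), lower in all 6 letters and called with the block (limma adjusted p = 0.0305). With equal totals that difference was -0.62 and called (limma adjusted p = 0.0394). CD163L1, a relative that overlaps CD163 on the same strand, averaged 384.9, 169.8, 414.7 and 312.1 normalized counts in DCVC_LPS, LPS, DCVC and Control, so reads from the overlap are uncertain for either gene.

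STAB1, stabilin-1, which clears acetylated LDL and extracellular SPARC (chromosome 3, 52495338 to 52524495, plus strand), was lower with DCVC both with and without LPS. For STAB1 the lowest, median and highest levels were 317.1, 464.7 and 914.5 normalized counts in DCVC_LPS and 1056, 1311 and 1356 in LPS. They were 331.3, 518.0 and 738.6 in DCVC and 1014, 1038 and 1205 in Control. All 12 libraries with DCVC lay below all 12 without it. STAB1 fell 2.12-fold in mean level with DCVC (log2 change -1.13 ± 0.19, limma adjusted p = 1.63e-05) and was lower in DCVC_LPS than in LPS (-1.41 ± 0.19, limma adjusted p = 3.36e-07). The LPS change was 0.23 ± 0.19 (limma adjusted p = 0.275), higher in 6 of 6 letters on the deposited scale and -0.25 with equal totals (limma adjusted p = 0.226). DCVC_LPS minus DCVC was -0.06 ± 0.19 (limma adjusted p = 0.805). Within letters E and F alone the DCVC change was -0.65 and not called (limma adjusted p = 0.0598). NT5DC2 meets the 3′ end of STAB1 on the other strand and averaged 3143, 3407, 4962 and 14010 normalized counts in DCVC_LPS, LPS, DCVC and Control, and its share in the STAB1 reads was not tested.

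MRC1, the mannose receptor (chromosome 10, 17809344 to 17911170, plus strand), had few reads, from 18 to 181 per library. With MRC1 the lowest, median and highest levels were 18.4, 29.7 and 36.7 normalized counts in DCVC_LPS and 29.4, 49.4 and 73.7 in LPS. They were 29.8, 42.6 and 72.2 in DCVC and 39.9, 73.1 and 143.0 in Control. The ranges overlapped in all 4 comparisons. MRC1 was lower with DCVC (log2 change -0.75 ± 0.31, limma adjusted p = 0.0426) and lower in DCVC_LPS than in LPS (log2 change -0.73 ± 0.31, limma adjusted p = 0.0391). With equal totals the changes were -0.50 (limma adjusted p = 0.154) and -0.31 (limma adjusted p = 0.364), and neither was called. With equal totals and the letter as replicate block together the first was called (limma adjusted p = 0.0155) and the second was not (limma adjusted p = 0.112). The calls were also lost with partner letters averaged (limma adjusted p = 0.162 and 0.143) and without any of several libraries, such as Control C (-0.57, limma adjusted p = 0.125) for the first and LPS C (-0.60, limma adjusted p = 0.0991) for the second. With partner letters averaged and the pair of letters as replicate block, both were called (limma adjusted p = 0.014 and 0.012). The changes of -0.68 ± 0.31 for LPS minus Control (limma adjusted p = 0.0512) and -0.66 ± 0.31 for DCVC_LPS minus DCVC (limma adjusted p = 0.0695) were not called, and with the letter as replicate block they were (limma adjusted p = 0.00186 and 0.003). Both were called with equal totals as well (-1.14, limma adjusted p = 0.00156, and -0.95, limma adjusted p = 0.00852). The LPS change was also called on recovered reads by edgeR with TMM scaling (adjusted p = 0.034), by edgeR with the deposited factors (adjusted p = 0.0306) and by DESeq2 (adjusted p = 0.0238). All 6 letters were lower in both.

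The interaction, which is the log2 LPS change after DCVC minus the LPS change without it, was called for 4 of the 9 receptors. It was positive in 3 and negative in 1, where 22.0% of all genes were called positive and 23.7% negative. For OLR1 it was 1.45 ± 0.48 (limma adjusted p = 0.0162): LPS raised the transcript by 5.93 after DCVC and by 4.48 without it, although its level with LPS was lower after DCVC. For CD36 it was 0.82 ± 0.21 (limma adjusted p = 0.00246) and for MSR1 0.70 ± 0.24 (limma adjusted p = 0.0204), both of which fell less with LPS in cells that DCVC had already brought low. The MSR1 value was not called without letter A (limma adjusted p = 0.0598), and the CD36 value was not called within letters E and F alone (0.79, limma adjusted p = 0.143). For MARCO it was -2.62 ± 0.76 (limma adjusted p = 0.00653), and MARCO had no called LPS change after DCVC. Since MARCO was tested only because it was high in the LPS group, a negative interaction was favoured in advance. The interaction was 0.19 ± 0.14 for SCARB1 (limma adjusted p = 0.294) and 0.46 ± 0.38 for CD163 (limma adjusted p = 0.345), both of them called with the letter as replicate block (limma adjusted p = 0.0176 and 0.0382), and that of SCARB1 was 0.37 and called with equal totals (limma adjusted p = 0.0443). With partner letters averaged only the CD36 interaction was called, and those of OLR1, MSR1 and MARCO were not (limma adjusted p = 0.135, 0.14 and 0.0609). With the pair of letters as replicate block as well, the interaction was called in all 4. For SCARB2, STAB1 and MRC1 it was -0.01 ± 0.19, -0.28 ± 0.27 and 0.02 ± 0.44, with limma adjusted p = 0.974, 0.409 and 0.98, and in SCARB2 the sign turned round with equal totals (0.17).

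**Figure D3:**
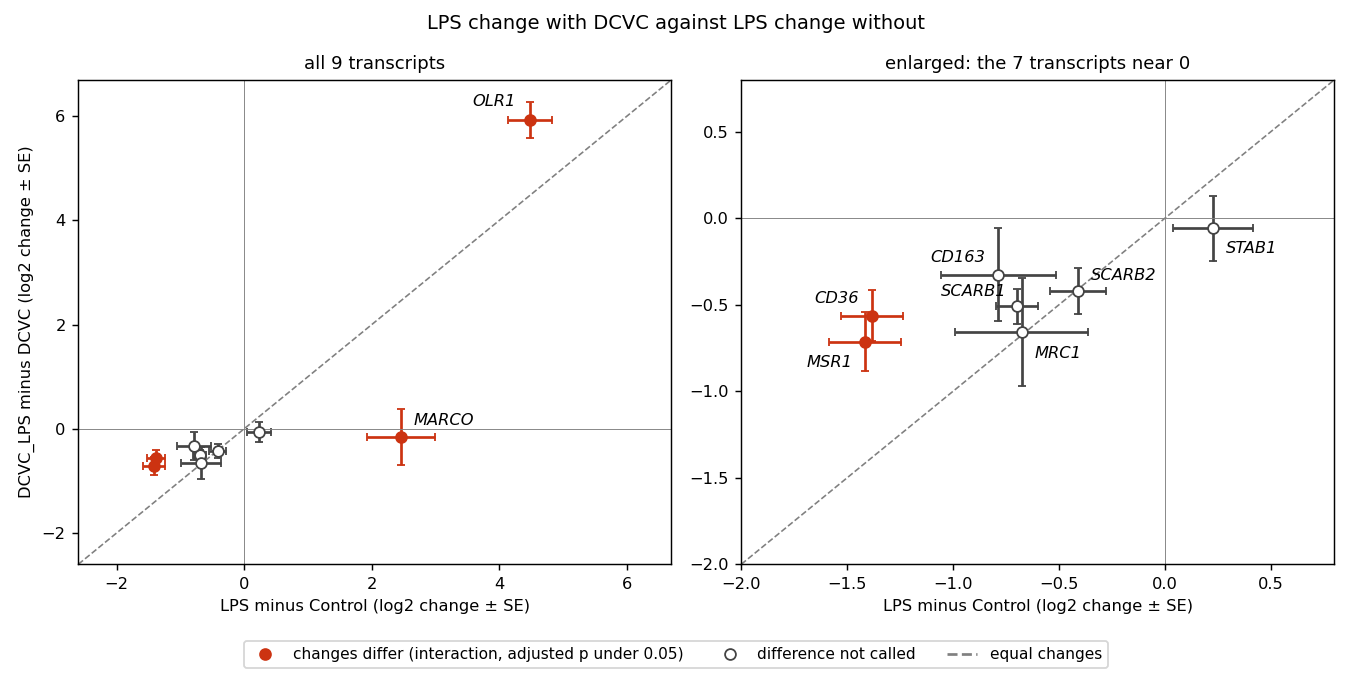
Each point sets the LPS change after DCVC (vertical) against the LPS change without DCVC (horizontal), both as log2 change ± SE, with the right panel enlarging the values near 0 and the dashed line marking equal changes. OLR1 (5.93 against 4.48), CD36 and MSR1 lie above the line and MARCO (-0.17 against 2.46) below it. MARCO was tested only because it was high in the LPS group, which favoured this position.

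Levels of different receptors were compared per kb of the principal transcript in GENCODE 29, since longer transcripts give more reads. In Control the order was MSR1 (15676 ± 3939 normalized counts per kb), CD36 (9296 ± 1945), SCARB2 (2512 ± 418), SCARB1 (1724 ± 192), CD163 (828 ± 366), OLR1 (421 ± 242), STAB1 (136 ± 10.6), MRC1 (16.4 ± 8.69) and MARCO (2.48 ± 1.39; SD, n = 6 each). The ranges of neighbouring genes overlapped for MSR1 and CD36, SCARB2 and SCARB1, and CD163 and OLR1. Within every Control library MSR1 was nevertheless above CD36. SCARB2 was below SCARB1 in Control F (1786 against 1790), and CD163 was below OLR1 in Control E and F. With LPS, OLR1 (8520.4 ± 2023.5) came first and MSR1 (5903 ± 1631) next, with overlapping ranges, though OLR1 was above MSR1 within every LPS library. In DCVC, OLR1 (31.0 ± 21.6) stood below STAB1 (64.5 ± 18.2), and in DCVC_LPS, OLR1 (1685 ± 569) overlapped CD36 (1741 ± 365).

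As a share of the 9 receptors per kb, OLR1 made up 16.8 ± 4.85% in DCVC_LPS, 39.3 ± 6.57% in LPS, 0.255 ± 0.194% in DCVC and 1.46 ± 0.965% in Control. The summed level was 10015 ± 1211 normalized counts per kb in DCVC_LPS, 21570.0 ± 3018 in LPS, 12660.0 ± 1326 in DCVC and 30612 ± 5513 in Control. With the union of all exons as the length, an alternative chosen after seeing the data, OLR1 led in DCVC_LPS as well and made up 35.4% in DCVC_LPS, 64.4% in LPS, 0.715% in DCVC and 4.17% in Control. The sums were then 3769, 10565, 3627 and 8571, so that LPS stood above Control and DCVC_LPS above DCVC, both the reverse of the order by principal transcript. The authors' gene model is not given in the sources used here, and orders between genes hold only for the lengths named.

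**Figure D4:**
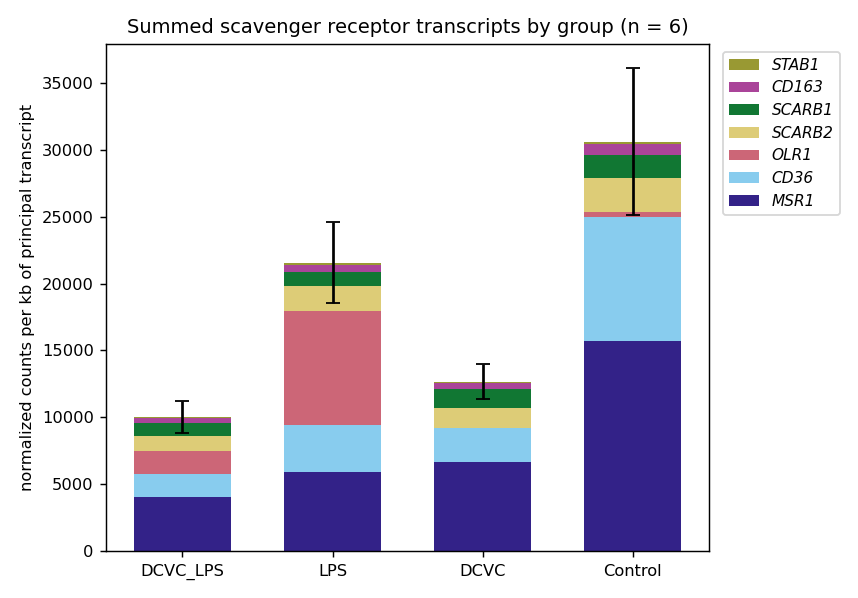
Bars stack the mean level of 7 receptors in normalized counts per kb of principal transcript, and the error bars give the SD over 6 libraries of the sum of all 9, with MARCO and MRC1 too low to draw. MSR1 and CD36 fill most of the Control bar. The share of OLR1, averaged over the 6 libraries of a group, was 39.3% in LPS and 16.8% in DCVC_LPS.

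The letters of the libraries went with the level of most receptors inside each group. OLR1 and SCARB1 were highest in libraries E and F in all 4 groups, CD163 was highest in A and B, MSR1 was highest in C and D, and SCARB2 was lowest in E and F. Control OLR1, for example, stood at 1595 and 1977 normalized counts in E and F and between 592.2 and 750.2 in the other 4 libraries. The labels do not say what the letters mark. Each group holds all 6 letters, so letter and treatment are not confounded.

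By likeness of pattern, the tested genes nearest to each receptor were found as the smallest root mean square difference of centred log2 levels over the 24 libraries. For OLR1 these were BCL2A1 (0.83), SERPINE2 and RASGRP1, and for MARCO ZMYND15 (0.70), FAS and FCAMR. CD36 was nearest to C20orf194 (0.25), ADCK2 and STMN3, and MSR1 to ITGB5 (0.26), SUN2 and RHBDF1. SCARB1 was nearest to MAN1B1 (0.098), GSTK1 and INTS3, and SCARB2 to CDC42BPB (0.16), SNX8 and UBE2Q2. CD163 was nearest to NCKAP1 (0.28), WDFY4 and TCIRG1, STAB1 to COL27A1 (0.18), CD81 and SPTBN5, and MRC1 to FCHO2 (0.39), CTDSP2 and TIMP2. Among the 9 receptors themselves the closest pair was MSR1 and CD36 (0.37), followed by CD163 and SCARB2 (0.40). Small differences in this measure come easily to genes that vary little, and it says nothing of shared control.

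A further 22 scavenger and endocytic receptors were listed, of which 17 were tested, and they did not share 1 direction. LPS raised 5 and lowered 6, DCVC raised 4 and lowered 9, DCVC_LPS was higher than LPS in 5 and lower in 9, and DCVC_LPS was higher than DCVC in 2 and lower in 3. Over all tested genes the shares raised and lowered were 37.8% and 40.6%, 27.5% and 32.2%, 33.3% and 39.4%, and 29.9% and 32.2% in the same order. With equal totals the counts of the 17 were 3 and 10, 5 and 9, 6 and 8, and 1 and 9, and with the letter as replicate block they were 6 and 9, 6 and 9, 6 and 9, and 3 and 7. Over all 13900 genes the counts with equal totals were 3118 and 8275, 6412 and 2790, 7578 and 3051, and 2263 and 7322. With LPS, SCARF1, a receptor for modified LDL, rose by 1.68 ± 0.19 (limma adjusted p = 2.15e-08) and CXCL16, a chemokine that also binds oxidized lipids, by 1.62 ± 0.21 (limma adjusted p = 1.42e-07). LPS lowered the lipoprotein receptor VLDLR (log2 change -1.58 ± 0.14, limma adjusted p = 1.88e-10) and the collectin COLEC12 (log2 change -1.96 ± 0.33, limma adjusted p = 8.38e-06). COLEC12 averaged only 6.04, 5.55, 10.6 and 23.2 normalized counts in DCVC_LPS, LPS, DCVC and Control. It reached the minimum mean of 10 only through the Control libraries, so a fall against Control was favoured in advance.

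DCVC raised MEGF10, an engulfment receptor, by 1.37 ± 0.22 (limma adjusted p = 1.07e-05) and CD5L, a secreted scavenger protein of macrophages, by 1.89 ± 0.37 (limma adjusted p = 0.000125). DCVC lowered LRP1, a large endocytic receptor (log2 change -1.64 ± 0.13, limma adjusted p = 1.85e-10) and TLR4, the LPS receptor (log2 change -0.91 ± 0.14, limma adjusted p = 3.58e-06). MEGF10 and CD5L were also higher in DCVC_LPS than in LPS (2.63 ± 0.22 and 3.48 ± 0.37, limma adjusted p = 1.38e-10 and 9.63e-09). CD5L averaged only 24.2, 1.58, 31.2 and 8.44 normalized counts in DCVC_LPS, LPS, DCVC and Control. It reached the minimum mean of 10 only through the libraries with DCVC, so its rises with DCVC were favoured in advance. The same holds for CD68, which is also among the listed receptors and was raised by DCVC. TLR4 averaged 1095 normalized counts in DCVC_LPS, 3743 in LPS, 1127 in DCVC and 2121 in Control, so DCVC_LPS was lower than LPS (log2 change -1.81 ± 0.14, limma adjusted p = 1.88e-11), and its interaction was -0.90 ± 0.19 (limma adjusted p = 0.000494).

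Among 15 transcription factors linked to scavenger receptor genes, all tested, LPS raised 7 and lowered 7 (37.8% and 40.6% of all genes), and DCVC raised 1 and lowered 6 (27.5% and 32.2% of all genes), or 1 and 9 with the letter as replicate block. NFE2L2, which encodes NRF2, a regulator of antioxidant genes, rose with LPS by 2.15 ± 0.07 (limma adjusted p = 4.02e-19). RXRA, the partner of PPAR gamma at lipid-responsive genes, fell with LPS (log2 change -3.01 ± 0.10, limma adjusted p = 5.27e-19), and MAF fell (log2 change -3.22 ± 0.27, limma adjusted p = 5.49e-11). With DCVC, CEBPA rose by 0.59 ± 0.15 (limma adjusted p = 0.00151) and NR3C1, the glucocorticoid receptor, under which CD163 is known to be induced, fell (log2 change -1.61 ± 0.08, limma adjusted p = 4.40e-14). LPS raised NR3C1, which averaged 12323 normalized counts in LPS and 4815 in Control, whereas CD163 fell with LPS. The part of NR3C1 in the CD163 levels was not tested. DCVC_LPS was higher than LPS in 4 factors and lower in 9 (33.3% and 39.4% of all genes), with CEBPA at 1.57 ± 0.15 (limma adjusted p = 1.40e-09) and NR3C1 at -2.49 ± 0.08 (limma adjusted p = 4.54e-18). With equal totals DCVC raised 2 and lowered 4, and DCVC_LPS was higher than LPS in 6 and lower in 5. Of all 13900 genes DCVC then raised 6412 and lowered 2790, and DCVC_LPS was higher than LPS in 7578 and lower in 3051. IRF4, also among the 15 factors, averaged 4.29, 38.4, 2.31 and 1.02 normalized counts in DCVC_LPS, LPS, DCVC and Control. It reached the minimum mean for testing only through the LPS libraries. In these counts its rise with LPS and its lower level in DCVC_LPS than in LPS were thus favoured in advance.

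Of 15 genes of lipid uptake, storage and export, 14 were tested. LPS raised 2 of them, ACSL1 (4.19 ± 0.10, limma adjusted p = 3.04e-21), which activates fatty acids, and ABCA1 (3.20 ± 0.25, limma adjusted p = 1.41e-11), which exports cholesterol, and lowered 6, where 37.8% of all genes were raised and 40.6% lowered. The 6 included FABP5, a fatty acid carrier (-1.43 ± 0.09, limma adjusted p = 4.54e-13), and PLIN2, a lipid droplet coat protein (-1.28 ± 0.10, limma adjusted p = 1.30e-11). DCVC raised 2 and lowered 5 (27.5% and 32.2% of all genes), or 2 and 9 with the letter as replicate block, with NPC1, the lysosomal cholesterol exporter, at 0.60 ± 0.11 (limma adjusted p = 4.73e-05) and LPL, lipoprotein lipase, at -1.44 ± 0.23 (limma adjusted p = 1.20e-05). DCVC_LPS was higher than LPS in 5 and lower in 4 (33.3% and 39.4% of all genes). With equal totals the counts were 2 raised and 10 lowered with LPS, 4 and 1 with DCVC, and 9 and 2 for DCVC_LPS against LPS. Of all 13900 genes 3118 and 8275, 6412 and 2790, and 7578 and 3051 were then raised and lowered in the same order.

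Of the 12 macrophage markers LPS raised none and lowered 8 (37.8% and 40.6% of all genes), and DCVC raised 2 and lowered 8 (27.5% and 32.2%). DCVC_LPS was higher than LPS in 3 and lower in 5 (33.3% and 39.4%), and higher than DCVC in 1 and lower in 4 (29.9% and 32.2%). With equal totals these counts were 0 and 10, 2 and 7, 8 and 3, and 0 and 9, and with the letter as replicate block they were 2 and 10, 2 and 9, 4 and 5, and 3 and 5. Those of all 13900 genes with equal totals were 3118 and 8275, 6412 and 2790, 7578 and 3051, and 2263 and 7322. The median log2 change of the markers was -0.51 for LPS minus Control and -0.59 for DCVC minus Control. It was -0.04 for DCVC_LPS minus LPS and -0.18 for DCVC_LPS minus DCVC. The medians of the receptors were -0.68, -0.83, -0.78 and -0.42 in the same order. With equal totals the marker medians were -0.99, -0.34, 0.39 and -0.47, and those of the receptors were -1.14, -0.58, -0.35 and -0.72. SPI1, which encodes PU.1, and LYZ, lysozyme, were among the 3 markers higher in DCVC_LPS than in LPS (0.88 and 1.19, limma adjusted p = 3.65e-05 and 0.000137). Among the 5 lower ones were CD14, FCER1G and ITGAM. These averaged 30.4, 3219 and 2637 normalized counts in DCVC_LPS and 175.8, 6820 and 5797 in LPS. CD14, the LPS co-receptor, fell with LPS (log2 change -3.82 ± 0.28, limma adjusted p = 3.60e-12) and with DCVC (log2 change -3.11 ± 0.28, limma adjusted p = 1.08e-09). CD68 was 1 of the 2 markers raised by DCVC and 1 of the 3 higher in DCVC_LPS than in LPS. It reached the minimum mean of 10 only through the libraries with DCVC, so both were favoured in advance. The part of the macrophage markers in the lower receptor levels was not tested.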

How the data were processed

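A column kit was used for RNA and poly-A selection for the libraries, per the labels' protocols. The submitters' processing notes list STAR and featureCounts 1.6.1, DESeq2 1.24.0 in R 3.6.0, quality tools (FastQC 0.11.5, MultiQC 0.9) and hg38, with no role or order. Neither annotation nor strand setting is named there.

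Values in the deposited table are a signal for each gene in each library, on a scale of normalized counts. The file does not state the scaling. In each library 100% of values came out as whole reads (tolerance 0.1 read) after division by a constant, so the authors had divided whole reads by a factor per library. In library A of LPS 1 read was worth 0.991, so that its values nearly coincide with reads.

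Of 58381 entries, 19595 carry no gene name and held 1.01% of the values on average; they were left out. The values of 51 symbols found on 2 entries were summed. The minimum for testing was a mean of 10 over 24 libraries. Values were taken as log2(value + 1) into limma 3.58.1 (R 4.3.3; trended empirical Bayes, 4 group means, 20 residual degrees of freedom, Benjamini-Hochberg adjustment over 13900 genes), which the unit called for. The script was tested on simulated data.

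All 9 receptors are named in every comparison, and of each further list up to 3 genes each way by smallest adjusted p, of which not all are described. The receptors and lists were chosen with earlier results of these data known. Whether the letters pair libraries was checked on deviations from the group means: all 36 correlations between libraries of 1 letter in different groups were above 0.1 (0.134 to 0.539), so the fit with the letter as replicate block stands beside each receptor whose call it changes and each list with a count it moves by over 1.5 times. On recovered reads, edgeR 4.0.16 (TMM, and the deposited factors) and DESeq2 1.42.0 were run as alternatives. With TMM, edgeR called 5263 genes raised and 5581 lowered for LPS minus Control and 4242 and 4253 for DCVC minus Control, where limma called 5253 and 5639, and 3820 and 4478. Other alternatives were other pseudocounts, other filters, no trend, equal totals, leaving out letters or libraries, and, chosen after seeing the data, averaging the partner letters (A with B, C with D, E with F) to 3 values a group.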

Additional observations from a re-analysis of the deposited data

Results flagged for a closer look

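STAB1 in DCVC_LPS library F stood at 914.5 normalized counts, far above the other 5 libraries of the group, which ran from 317.1 to 526.9. Its gap to the nearest of them was 0.649 of the range of the group, beyond the critical value for 6 libraries. It was the only library so marked among 36 sets of 6 values (9 receptors in 4 groups), and chance marks about 1 in 20 such sets. Without that library STAB1 was lower in DCVC_LPS than in LPS (log2 change -1.60, limma adjusted p = 2.32e-09), and its interaction was -0.47 (limma adjusted p = 0.072), against -0.28 with all libraries.

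The LPS change after DCVC differed from the LPS change without DCVC, by the test of the difference itself, in 4 receptors. The difference was 1.45 for OLR1, 0.82 for CD36 and 0.70 for MSR1 on the log2 scale. It was -2.62 for MARCO, where a negative value was favoured because only its high LPS level let it be tested. These values and their errors stand with the interaction above.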

How the results depend on the processing

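Over 46 alternative settings, 17 of the 45 single changes of a receptor kept both their direction and their side of the threshold, among them all of OLR1 but its interaction. With the partner letters averaged, LPS lowered 3 receptors, DCVC lowered 5, 1 had a positive interaction and 0 a negative one. With the pair as replicate block as well, no call of the full data was lost, and of the 6 calls that the letter as block adds, the 2 of MRC1 were made. With the letter as replicate block no call was lost, and the calls it added are the 6 given in the report; it brought the receptors with a positive interaction to 5, also with equal totals, and changed no other call. With equal totals, and with the block and equal totals together, SCARB1 was 0.0098 for DCVC minus Control and 0.38 for DCVC_LPS minus LPS, SCARB2 was 0.17 for the interaction, CD163 was 0.0615 for DCVC_LPS minus LPS and STAB1 was -0.25 for LPS minus Control, each with its sign turned round. With equal totals DCVC lowered 5 receptors, or 7 with the block, and DCVC_LPS was higher than LPS in 1 with or without it. With a minimum mean of 50, where MARCO was not tested, LPS raised 1 receptor and none (0) had a negative interaction. Within letters A and B, MARCO was -0.54 for DCVC minus Control, SCARB2 was 0.13 for the interaction and 0 receptors had a negative one. Within letters C and D, MARCO was 0.29 for DCVC_LPS minus DCVC and 2 receptors had a negative interaction. Within letters E and F, DCVC lowered 4 receptors, CD163 was 0.12 for DCVC_LPS minus LPS, STAB1 was 0.0921 for DCVC_LPS minus DCVC and MRC1 was -0.26 for the interaction. Leaving out a letter or a library gave -0.28 to 0.32 for MARCO in DCVC minus Control and -0.49 to 0.28 in DCVC_LPS minus DCVC, -0.10 to 0.0024 for SCARB1 in DCVC_LPS minus LPS, -0.0991 to 0.0848 for SCARB2 and -0.17 to 0.20 for MRC1 in the interaction, and -0.25 to 0.0585 for STAB1 in DCVC_LPS minus DCVC; none of these changes was called in the full data. The cause of these shifts was not tested, apart from the fewer libraries, values or genes that a setting holds.

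Limits are the resemblance of partner letters, which bears on every p-value, the choice of scale, depth for MARCO and MRC1, whose libraries held at most 41 and 181 reads, and the unknown strand setting for genes that overlap others.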

Other observations

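The size of the DCVC change went with the letter of the library in STAB1 and CD163. In DCVC cells STAB1 stood at 331.3 and 385.8 normalized counts in libraries A and B, 504.3 and 531.8 in C and D, and 574.2 and 738.6 in E and F. In DCVC_LPS cells it stood at 347.0 and 317.1 in A and B, 445.8 and 483.6 in C and D, and 526.9 and 914.5 in E and F. In Control cells A and B were highest instead, at 1205 and 1171, and the other 4 libraries lay between 1014 and 1046. The log2 change of STAB1 for DCVC minus Control was -1.73 within A and B, -1.002 within C and D and -0.65 within E and F. That of CD163 was -1.30, -0.81 and -0.38 in the same order, while that of OLR1 was -3.94, -3.82 and -3.67. Whether these changes differ between the letters was not tested.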
